A study of Rattus norvegicus with 20 samples.

Results

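The comparison described here sets the livers of 3 rats given tricresyl phosphate (TCP) at 497.3 mg/kg body weight per day against those of 5 control rats, 8 arrays of the 20 in the study. The arrays were chosen by their titles alone, so no measured value entered the choice. All rats were male Harlan Sprague Dawley, and all received corn oil by oral gavage, once daily on 4 days, and were killed on day 5. The control rats received the oil alone. The 497.3 mg/kg group received TCP dissolved in it, at a dose the labels also give as 1.35 mmol/kg. The other groups, of 3 rats each, received 62.3, 124.5, 248.6 or 994.6 mg/kg and served here to estimate the spread and to place the leading genes along the dose range. Each array measured RNA from pieces of the left liver lobe of a single rat, and replicates are therefore separate animals. The labels give no age, and the whole-lobe tissue holds every cell type of the liver, so fewer cells of a type and less RNA per cell cannot be told apart.

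TCP is a triaryl organophosphate used as a plasticizer and as an additive of lubricants and hydraulic fluids, best known for its neurotoxic ortho isomers. Triaryl phosphates are cleared in the liver by oxidation, ester hydrolysis and conjugation with glutathione or glucuronic acid. The nuclear receptors CAR and PXR raise the transcription of many of the enzymes and export pumps of that pathway. The same cells make bile acids from cholesterol, join them to taurine or glycine, and secrete sterols into bile. Liver cells and resident macrophages also make chemokines, secreted proteins that attract leukocytes, many of them under control of the transcription factor NF-kB.

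Values are log2 expression after RMA, a method that corrects background, equalizes the distributions of the arrays and summarizes each probe set. A difference of 1 is therefore a 2-fold difference in measured signal. Levels were compared between groups within a gene, not between genes. For some lists the signal of the members was summed, and genes of high signal weigh most in such a sum. A gene was called where limma, fitted to all 20 arrays, gave a Benjamini-Hochberg adjusted p under 0.05 over 14217 genes. The error after ± is the standard error of the difference in that fit.

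Of the 14217 genes, 104 were called at 497.3 mg/kg, 0.732% of those tested. Of these, 73 rose (0.513%) and 31 fell (0.218%). A change of at least 2-fold was reached by 27 of the called genes and at least 1.5-fold by 61. Without multiple-testing adjustment, 1729 of the 14217 genes had a p under 0.05. That share is the one to set beside the unadjusted counts of the lists below. The median change over all genes was 0.01, and 52.2% of genes had a positive difference. In 812 genes (5.71%) all 3 dose arrays lay above all 5 control arrays, and in 610 (4.29%) all 3 lay below, so a lack of overlap alone was common. All 104 called genes had no overlap. After centring each array on its median, 108 genes passed, with 62 increases and 46 decreases, which moved the share of increases from 70.2% to 57.4%. The count of calls rested on single arrays. It was 65 without replicate 1 of the dose, 38 without replicate 2 and 53 without replicate 3. Without a control array it was 62, 60, 73, 65 and 54 for replicates 1 to 5.

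**Figure D1:**
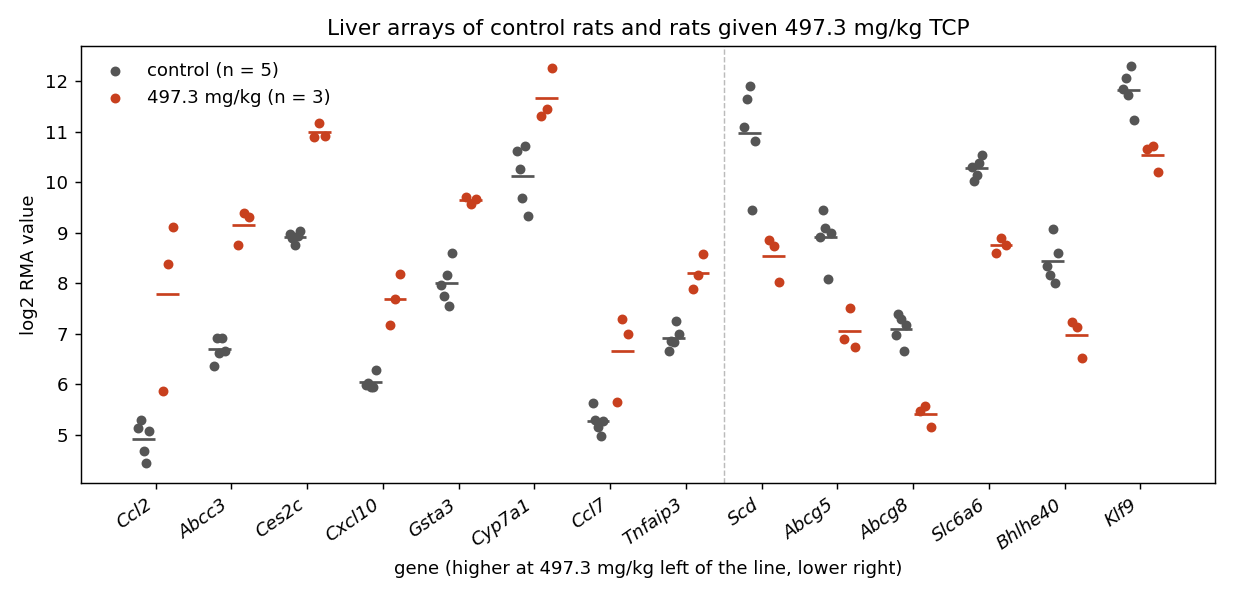
Each point is the log2 RMA value of 1 array for the gene named on the horizontal axis; grey points are the 5 control rats, red points the 3 rats at 497.3 mg/kg, and short lines the group means. The 8 genes left of the dashed line were called higher and the 6 right of it lower, and in none of the 14 do the red and grey points overlap.

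The arrays of the dose and the control also differed in a measure of RNA ends. The array carries probe sets at the 3′ and the 5′ end of GAPDH and beta-actin, and a larger 3′ minus 5′ difference means less full-length labelled RNA. For GAPDH the difference was 1.37 ± 0.18 (SD, n = 5) in control and 0.81 ± 0.10 (SD, n = 3) at the dose, with ranges of 1.13 to 1.56 and 0.71 to 0.90. For beta-actin it was 2.50 ± 0.25 in control and 1.98 ± 0.28 at the dose, with ranges of 2.29 to 2.90 and 1.74 to 2.29. The groups did not overlap on either transcript. In both cases the exact two-sided permutation test gave p = 0.0179, the smallest value that 3 against 5 arrays allow, and 0.0179 after adjustment over both. The exact p no longer fell under 0.05 without control replicate 1 or 4 for GAPDH (differences of -0.58 and -0.57), and without control replicate 1 or 3 or dose replicate 1 or 3 for beta-actin (-0.56, -0.56, -0.40 and -0.49). In these cases the groups still did not overlap, with an exact permutation p of 0.0571 without a control array and 0.0952 without a dose array. The other omissions gave 0.0286 without a control array and 0.0476 without a dose array. The lower doses spanned 0.76 to 2.58 for GAPDH and 1.76 to 2.97 for beta-actin. With the GAPDH difference as a covariate, 113 genes passed the same threshold, of which 99 rose and 14 fell, and they held 66 of the 104. Where the call of a gene described here ended with this covariate, that is given with the gene. Correlations between arrays over all genes were 0.9931 to 0.9947 within the dose, 0.9937 to 0.9953 within control and 0.9901 to 0.9939 between them. Replicate 1 of 994.6 mg/kg stood apart from all other arrays on the main axis of variation, and without it in the fit the count of calls was 156.

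**Figure D2:**
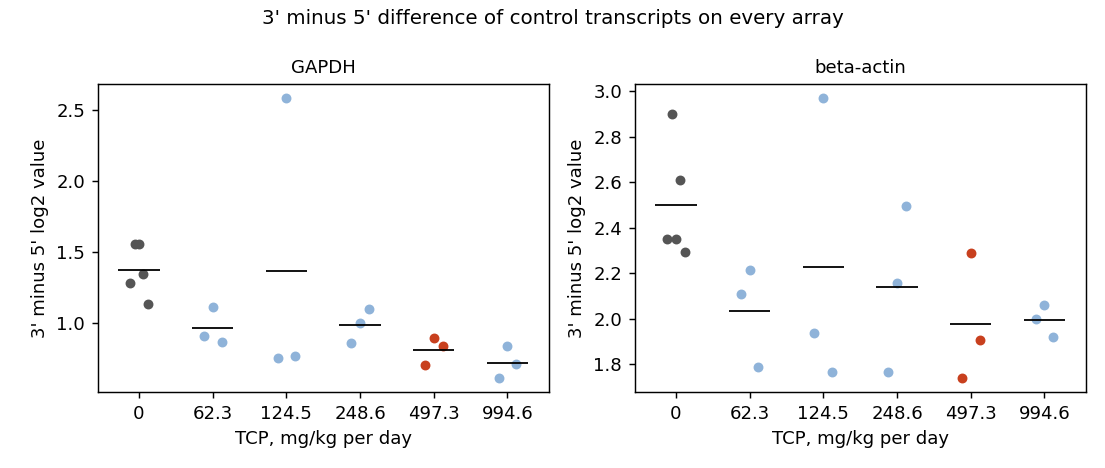
Each point is the 3′ minus 5′ log2 difference of 1 array for GAPDH (left) or beta-actin (right), by daily dose of TCP, and lines mark group means. The 3 arrays at 497.3 mg/kg (red) lie below the 5 control arrays (grey), at 0.71 to 0.90 against 1.13 to 1.56 for GAPDH.

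Enzymes and a pump of foreign-compound clearance were among the increases. Ces2c, Abcc3, Gsta3, Ugt2b1, Aldh1a1 and Ephx1 rose. Of 22 measured CAR and PXR targets, 5 rose and none fell, with a median change of 0.18, against 0.01 over all genes. The largest negative difference of that list, of Akr1b7, was -1.02 and was not called. Over all genes, 0.513% were called higher, 0.218% were called lower and 52.2% had a positive difference. Those shares apply to every list count below. The lists were written with earlier results of these data known, so their counts are a description. Cyp2b1 and Cyp2b2 were not among the measured CAR and PXR targets. The calls of the genes that rose here all remained with the GAPDH covariate.

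Ces2c encodes a carboxylesterase of the endoplasmic reticulum that hydrolyses ester drugs and acylglycerols. Its control arrays read 8.98, 8.90, 8.76, 8.94 and 9.04, and its dose arrays 10.90, 11.17 and 10.92. The dose arrays lay in a narrow band more than 1 log2 unit above the highest control array. The change was 2.07 ± 0.17, 4.21-fold, with an adjusted p of 2.64e-06 in limma. Differences from control at the other doses were 0.78, 0.88 and 1.60 at 62.3, 124.5 and 248.6 mg/kg and 2.92 at 994.6 mg/kg. The adjusted p stayed at or below 9.39e-05 whichever of the 8 arrays was left out.

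Abcc3, also known as MRP3, exports glucuronides and bile acids from hepatocytes into the blood. Control arrays read 6.36, 6.92, 6.61, 6.92 and 6.66, and dose arrays 8.75, 9.40 and 9.32. The dose arrays all stood well clear of control, with replicate 1 the lowest of them. Abcc3 rose by 2.46 ± 0.24, 5.51-fold (limma, adjusted p = 2.5e-05). It differed from control by 0.83, 0.87 and 2.02 at the lower doses in rising order and by 2.86 at 994.6 mg/kg.

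Gsta3 encodes an alpha-class glutathione transferase. It read 7.97, 7.75, 8.16, 7.55 and 8.59 in control and 9.72, 9.57 and 9.68 at the dose. The 3 dose arrays agreed closely while the control arrays spread over about 1 unit, with replicate 5 the highest. Gsta3 rose by 1.65 ± 0.20, 3.14-fold (limma, adjusted p = 0.000323). Members of this gene family are similar in sequence, and the probes could not be checked here for signal from a close relative. Gstt3, a theta-class transferase, rose by 0.77 ± 0.18 (adjusted p = 0.0488). Both were among the 21 glutathione transferases measured, of which 2 rose and none fell, with 19 positive differences and a median of 0.14.

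Ugt2b1, which joins glucuronic acid to phenols and steroids, read 12.20 to 12.89 in control and 13.47, 13.59 and 13.35 at the dose. It rose by 0.99 ± 0.14 (limma, adjusted p = 0.00124) and was the 1 gene of 21 measured glucuronosyl- and sulfotransferases to be called. The median of that list was 0.03. Aldh1a1, a retinal dehydrogenase, read 12.004 to 12.59 in control and 13.10, 13.08 and 13.12 at the dose, a change of 0.76 ± 0.13. Ephx1, the microsomal epoxide hydrolase, read 12.57 to 13.08 in control and 13.55, 13.36 and 13.33 at the dose, a change of 0.61 ± 0.11. Adjusted p-values were 0.00736 for Aldh1a1 and 0.00829 for Ephx1. In these genes no dose array overlapped control.

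Among cytochrome P450 genes of drug metabolism and their electron donor, none of those described here was called. Cyp3a23-3a1, a classical PXR target, read 12.52 to 13.56 in control and 13.72, 13.91 and 13.99 at the dose, a difference of 0.70 ± 0.18 that was not called (adjusted p = 0.0846). Cyp3a2 differed by 0.10 ± 0.07. Por, the electron donor of the cytochromes P450, differed by -0.44 ± 0.24. Cyp1a1, a classical AhR target, read 5.82 to 6.17 in control and 6.35, 6.27 and 5.96 at the dose, a difference of 0.16 ± 0.54 with overlap. That error also draws on the other doses, where replicate 1 of 248.6 mg/kg read 10.17 and the 994.6 mg/kg arrays 7.39, 6.23 and 7.22. None of the 7 measured AhR targets was called in limma (median 0.05, with 2 at an unadjusted p under 0.05), and none of 22 nuclear receptor genes (median 0.00, with 1).

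Of 20 NRF2 targets measured, 2 rose and none fell, with 17 positive differences and a median of 0.25. They were Ephx1 and Srxn1, the sulfiredoxin that repairs overoxidized peroxiredoxins, which rose by 0.51 ± 0.10 (limma, adjusted p = 0.0257). With the mean of its probe sets Srxn1 differed by 0.25 and was not called (0.220). Nqo1, a quinone reductase, differed by 0.61 ± 0.22 with overlap and was not called (adjusted p = 0.224). The heme oxygenase gene Hmox1 differed by 0.51 ± 0.50, an error that also draws on 12.46 in replicate 1 of 994.6 mg/kg. Nfe2l2, which encodes NRF2 itself, differed by 0.28 ± 0.27. Some calls of this section ended when an array was left out. The call of Ephx1 ended without replicate 1 of the dose (adjusted p = 0.0555). Those of Srxn1 and Gstt3 ended on leaving out any of 5 and any of 7 arrays, with adjusted p-values up to 0.134 and 0.180.

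The esterase genes other than Ces2c showed no call. Of 28 esterases and lipid hydrolases measured, 1 rose and none fell, with a median of -0.02. Pnpla6, the neuropathy target esterase that neurotoxic organophosphates inhibit as a protein, read 7.01 to 7.20 in control and 7.20, 7.15 and 7.10 at the dose. The difference was 0.03 ± 0.08. Bche, the plasma butyrylcholinesterase made in liver, differed by 0.23 ± 0.12 (adjusted p = 0.485). Ces1d, an abundant hepatic carboxylesterase, differed by -0.34 ± 0.13 (adjusted p = 0.255). Both overlapped control.

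In bile acid synthesis, taurine uptake and sterol export a few genes were called. Cyp7a1 and Cyp8b1 rose, while Slc6a6, Abcg5 and Abcg8 fell, as did Scd. The promoters of the sterol exporters and of Slc6a6 are shown because these are the genes of sterol export and taurine uptake that fell. Windows run from 250 bases before to 50 after the annotated start, in RefSeq on build GRCr8. Abcg5 and Abcg8 are transcribed away from each other, and their windows share 295 of 300 bases. The Abcg5 window lies on the plus strand of chr6:15717686-15717985 and the Slc6a6 window on the plus strand of chr4:125752252-125752551. Capitals in the Abcg5 window mark a match to the antioxidant response element core TGACNNNGC. Capitals in the Slc6a6 window mark a match to that core on the minus strand, which overlaps the nuclear receptor element core AGGTCA on the plus strand.
Abcg5: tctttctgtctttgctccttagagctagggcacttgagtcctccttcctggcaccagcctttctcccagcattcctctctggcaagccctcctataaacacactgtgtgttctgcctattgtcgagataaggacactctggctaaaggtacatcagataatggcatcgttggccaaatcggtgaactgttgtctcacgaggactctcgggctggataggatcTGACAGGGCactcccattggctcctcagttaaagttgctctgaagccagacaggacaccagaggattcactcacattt
Slc6a6: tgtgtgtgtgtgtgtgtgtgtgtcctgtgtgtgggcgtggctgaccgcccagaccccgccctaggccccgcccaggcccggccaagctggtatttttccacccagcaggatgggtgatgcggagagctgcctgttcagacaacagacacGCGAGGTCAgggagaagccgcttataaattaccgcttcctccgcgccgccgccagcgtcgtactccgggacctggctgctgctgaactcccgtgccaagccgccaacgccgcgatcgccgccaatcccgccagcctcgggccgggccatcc

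Both strands were searched for those cores, the E-box CACGTG, the D-box TTATGTAA and the sterol element core TCACNCCAC. Of 33469 RefSeq windows of this length, 12.1% hold TGACNNNGC, 16.2% AGGTCA, 6.42% CACGTG, 0.893% TTATGTAA and 1.12% TCACNCCAC. The Abcg5 window held no match to the last 4 of these. Of the 14 named genes that fell, 11 had a single window in the table, and 4 of these held TGACNNNGC. They were Scd, Abcg5, Abcg8 and Slc6a6, and Abcg5 and Abcg8 share the same match. Among the 26 named genes that rose, 18 had a single window, and 5 held TGACNNNGC and 3 AGGTCA. Bhlhe40, Ccar1 and Tnfaip3 were the named called genes whose window held CACGTG. No window of these genes held TTATGTAA or TCACNCCAC.

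Abcg5 and Abcg8 form the dimer that moves cholesterol and plant sterols into bile. Abcg5 read 8.92, 9.46, 9.10, 8.09 and 8.99 in control and 6.90, 7.50 and 6.74 at the dose. Abcg8 read 6.97, 7.39, 7.29, 6.66 and 7.18 in control and 5.48, 5.57 and 5.16 at the dose. Control replicate 4 was the lowest control array for both genes, and still lay above every dose array. Abcg5 fell by 1.87 ± 0.32 on the log2 scale, 3.65-fold (limma, adjusted p = 0.00827). Abcg8 fell by 1.70 ± 0.23, 3.24-fold (adjusted p = 0.0012). For Abcg8 the differences from control at the other doses were -0.66, -0.47 and -0.97, and -1.99 at 994.6 mg/kg. For Abcg5 they were -0.65, -0.43 and -1.22, and -2.34 at 994.6 mg/kg. The call of Abcg5 ended without replicate 3 of the dose (adjusted p = 0.0548), and that of Abcg8 remained whichever array was left out. Both belong to a list of 15 LXR targets and sterol exporters, of which 3 fell and none rose. The other was Scd, and the list's median was 0.03. Over all genes, 0.218% were called lower.

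Slc6a6 carries taurine into cells. Control arrays read 10.31, 10.02, 10.16, 10.39 and 10.55, and dose arrays 8.61, 8.89 and 8.75. Every dose array was more than 1 unit below the lowest control array. Slc6a6 fell by 1.53 ± 0.13, 2.90-fold (limma, adjusted p = 2.64e-06). The lower doses differed from control by -0.33, -0.89 and -0.71, and 994.6 mg/kg by -2.25. Among 23 hepatic bile and drug transporters, Abcc3 rose, Slc6a6 fell and the other 21 were not called, with a median of -0.09.

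Cyp7a1 encodes the hydroxylase that sets the pace of bile acid synthesis, and Cyp8b1 the hydroxylase that directs the pathway to cholic acid. Cyp7a1 read 10.61, 10.26, 9.70, 10.73 and 9.33 in control and 11.32, 11.45 and 12.26 at the dose. Control arrays spread over more than 1 unit, with replicates 3 and 5 low. Cyp7a1 rose by 1.55 ± 0.32, 2.93-fold (limma, adjusted p = 0.0257). It differed from control by 0.67, 1.17 and 1.34 at the lower doses and by 2.23 at 994.6 mg/kg. Cyp8b1 read 11.62 to 11.77 in control and 12.69, 12.36 and 12.40 at the dose, and rose by 0.78 ± 0.17 (adjusted p = 0.0416). Of 19 genes of bile acid synthesis and conjugation, these 2 rose and none fell, with a median of 0.01. Leaving out any of 4 arrays ended the call of Cyp7a1 (control replicates 3 and 5, dose replicates 2 and 3, adjusted p up to 0.134), and leaving out any of the 8 ended that of Cyp8b1 (up to 0.188).

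Scd, the desaturase that makes oleic and palmitoleic acid, had the largest decrease and a wide spread. Control arrays read 11.11, 11.66, 11.91, 9.45 and 10.81, and dose arrays 8.87, 8.74 and 8.03. Control replicate 4 was low and came within 1 unit of the dose arrays. Scd fell by 2.45 ± 0.53, 5.45-fold (limma, adjusted p = 0.0382). The call ended with the GAPDH covariate (adjusted p = 0.108) and on leaving out any of the 8 arrays except control replicate 4 (up to 0.143). Scd was the 1 call among 28 genes of fatty acid and triglyceride synthesis, whose median was -0.05. In that list Lpin1, a phosphatidate phosphatase, differed by -1.69 ± 0.59 and was not called (adjusted p = 0.213). No gene of 23 in cholesterol synthesis and uptake was called (median 0.00, with 2 at an unadjusted p under 0.05). Insig1, which holds the sterol sensor in the endoplasmic reticulum, had the largest difference there. It read 10.67 to 11.47 in control and 10.04, 9.28 and 10.34 at the dose, a difference of -1.29 ± 0.31 (adjusted p = 0.069).

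**Figure D3:**
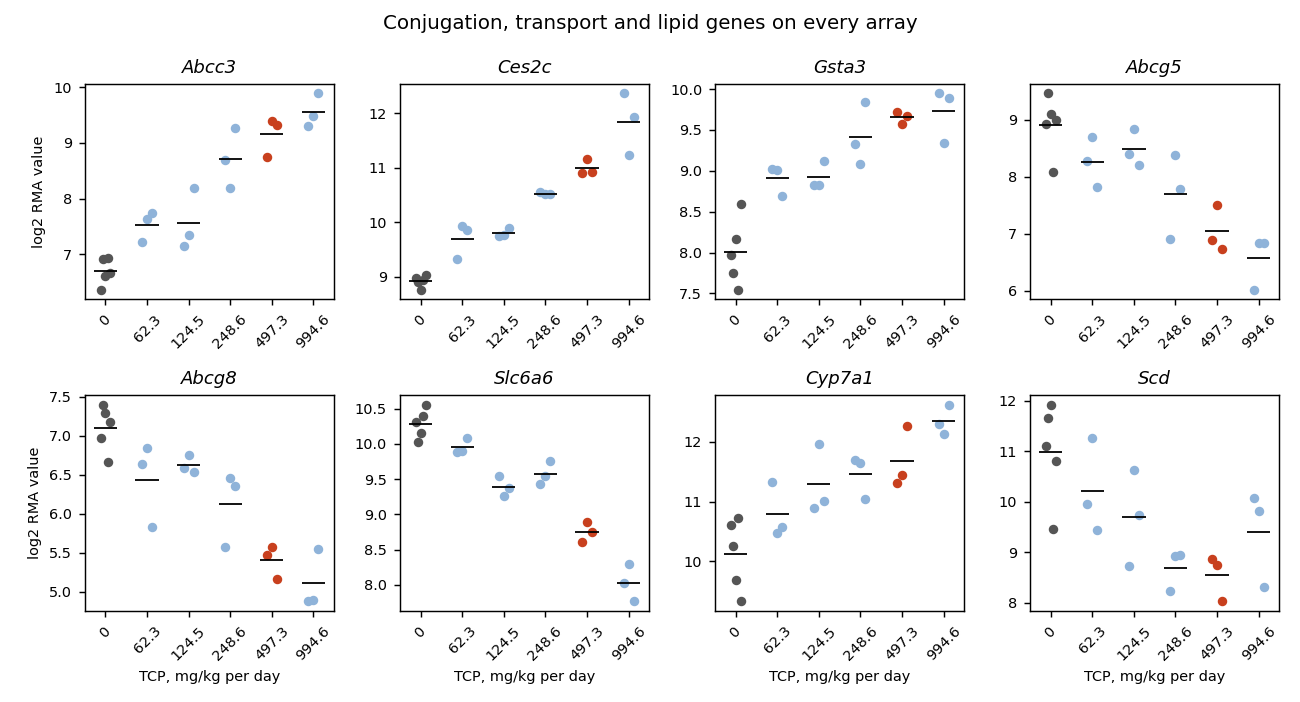
Each panel shows the log2 RMA value of 1 gene on all 20 arrays by daily dose of TCP, with grey points for control, red for 497.3 mg/kg, blue for other doses and lines for group means; the vertical scale differs between panels. Abcc3, Ces2c, Gsta3 and Cyp7a1 lie higher and Abcg5, Abcg8 and Slc6a6 lower at 994.6 mg/kg than at 497.3 mg/kg by group mean, while Scd does not go lower.

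The other metabolic lists held few calls. Ppp1r3b, which targets a phosphatase to glycogen, read 12.02, 11.92, 12.11, 11.70 and 11.79 in control and 10.71, 10.79 and 10.38 at the dose. It fell by 1.28 ± 0.20 (limma, adjusted p = 0.00355), without overlap and whichever array was left out. It was the 1 call among 23 genes of glucose and glycogen metabolism (median 0.03). Acot2, a mitochondrial acyl-CoA thioesterase, rose by 0.81 ± 0.15 (adjusted p = 0.0138), the 1 call among 33 PPAR-alpha targets (median 0.06). Its call ended without replicate 1 or 2 of the dose (adjusted p = 0.0570 and 0.0848). Cbs, which channels homocysteine to cysteine, fell by 0.58 ± 0.12 (adjusted p = 0.0232), the 1 call among 38 genes of the urea cycle and amino acid breakdown (median -0.09). The call of Cbs ended with the GAPDH covariate (adjusted p = 0.0689) and on leaving out any of 3 arrays (up to 0.101). Hdc, which makes histamine, differed by 1.39 ± 0.51 (adjusted p = 0.246) and Hal, which breaks down histidine, by -0.48 ± 0.18 (adjusted p = 0.267). Neither Hdc nor Hal overlapped control, and neither was called.

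No call was made by limma among 19 genes of heme synthesis and iron handling (median -0.02), 41 subunits of oxidative phosphorylation (median 0.06) or 4 adenylate kinases (median -0.01). Unadjusted p-values were under 0.05 for 2, 6 and 1 of them. Alas1, the rate-limiting enzyme of hepatic heme synthesis, differed by 0.19 ± 0.18. Tfrc, the transferrin receptor, had the largest difference of the heme and iron list, -0.62 ± 0.20. Uqcrc2, a core subunit of respiratory complex III, had that of the oxidative phosphorylation list, 0.30 ± 0.11. Outside all lists, App, the amyloid precursor protein, read 10.89 to 11.41 in control and 12.29, 12.20 and 12.10 at the dose, and rose by 1.09 ± 0.15 (limma, adjusted p = 0.0012). Its call remained whichever array was left out. Rbp2, a cellular retinol-binding protein, rose by 1.05 ± 0.19 (adjusted p = 0.00992), and its call ended without replicate 1 of the dose (adjusted p = 0.0566).

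Chemokine genes and the NF-kB genes Tnfaip3 and Nfkb1 were also among the increases. Ccl2, Cxcl10, Ccl7 and Tnfaip3 were among the 12 largest increases. Their dose arrays differed in spread: the SD over the 3 was 1.71 for Ccl2 and 0.91 for Ccl7, against 0.35 for Abcc3. Of 35 genes of the acute phase and inflammation, 5 rose and none fell, with a median of 0.09. They were Ccl2, Tnfaip3, Orm1, Nfkb1 and Cxcl2. Over all genes, 0.513% were called higher.

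Promoter windows of Cxcl10 and Tnfaip3 are shown because both genes remained called whichever array was left out. The Cxcl10 window lies on the plus strand of chr14:15988816-15989115 and the Tnfaip3 window on the minus strand of chr1:15543930-15544229. Capitals mark matches on either strand to GGGNNNTTC, a core of the kB element bound by NF-kB. This core was chosen after these letters had been read, so the matches are a description.
Cxcl10: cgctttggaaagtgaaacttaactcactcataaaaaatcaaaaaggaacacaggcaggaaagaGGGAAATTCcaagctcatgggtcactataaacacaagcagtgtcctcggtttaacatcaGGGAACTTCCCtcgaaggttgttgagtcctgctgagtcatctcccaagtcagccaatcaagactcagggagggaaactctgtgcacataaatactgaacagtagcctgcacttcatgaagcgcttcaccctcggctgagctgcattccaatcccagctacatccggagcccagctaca
Tnfaip3: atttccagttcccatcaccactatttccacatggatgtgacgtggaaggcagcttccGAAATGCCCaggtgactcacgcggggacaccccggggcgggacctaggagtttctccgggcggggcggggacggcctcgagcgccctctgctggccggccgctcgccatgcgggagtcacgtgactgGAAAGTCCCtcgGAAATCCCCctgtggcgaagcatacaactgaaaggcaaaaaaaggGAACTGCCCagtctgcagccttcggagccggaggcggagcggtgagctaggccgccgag

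The Cxcl10 window held 3 matches, of which a pair overlap on opposite strands, and the Tnfaip3 window held 4. The core occurs in 14.2% of all 33469 windows. It was found in 6 of the 18 named genes with a single window that rose, namely Cxcl10, Ccl7, Tnfaip3, Rbp2, Orm1 and Nfkb1. Among the 11 that fell it was found in 2, Klf9 and Ier2.

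Ccl2, or MCP-1, attracts monocytes. Its control arrays read 5.13, 5.28, 4.68, 4.44 and 5.08, and its dose arrays 5.87, 8.39 and 9.12. Replicates 2 and 3 stood more than 3 units above control, while replicate 1 lay just above it. All control arrays read low, below the array medians of 6.31 to 6.41. Ccl2 rose by 2.87 ± 0.48, 7.32-fold, the largest increase among named genes (limma, adjusted p = 0.00736). The lower doses differed from control by -0.03, 0.07 and 0.21, and 994.6 mg/kg by 0.95. The change was 3.83 without replicate 1, 2.58 without replicate 2 and 2.21 without replicate 3. The call ended without replicate 2 (adjusted p = 0.0567).

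Ccl7, or MCP-3, attracts monocytes through the same receptor. It read 5.62, 5.29, 5.16, 4.96 and 5.26 in control and 5.65, 7.30 and 6.996 at the dose. Replicate 1 of the dose was barely above the highest control array, and the others were more than 1 unit above it. Ccl7 rose by 1.39 ± 0.25 (limma, adjusted p = 0.0122). The call ended without replicate 2 (adjusted p = 0.0867) or replicate 3 (0.0831), and the change was 1.89 without replicate 1.

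Cxcl10, an interferon-inducible chemokine for T cells, read 5.98, 6.03, 5.95, 5.94 and 6.27 in control and 7.18, 7.69 and 8.19 at the dose. All 3 dose arrays were clear of control. Cxcl10 rose by 1.65 ± 0.25, 3.14-fold (limma, adjusted p = 0.00314). It differed from control by 0.25, 0.19 and 0.13 at the lower doses and by 1.11 at 994.6 mg/kg. It was the 1 call among 35 interferon response genes, of which 31 had a positive difference, with a median of 0.27.

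Tnfaip3, or A20, is a ubiquitin-editing enzyme that restrains NF-kB. It read 6.65, 6.85, 6.84, 7.25 and 6.995 in control and 7.89, 8.16 and 8.58 at the dose. The lowest dose array was above the highest control array. Tnfaip3 rose by 1.29 ± 0.17, 2.45-fold (limma, adjusted p = 0.0012). Nfkb1, which encodes an NF-kB subunit, rose by 0.61 ± 0.13 (adjusted p = 0.0257), but leaving out any of 6 arrays ended the call (up to 0.130). Casp4, the caspase of the noncanonical inflammasome, read 7.54 to 8.15 in control and 8.76, 9.15 and 8.92 at the dose. It rose by 1.02 ± 0.17 (adjusted p = 0.00793), and its call ended without replicate 2 of the dose (0.0577). Orm1, an acute phase protein of hepatocytes, rose by 0.76 ± 0.16 (adjusted p = 0.0327). Leaving out any of 7 arrays ended the call of Orm1 (up to 0.159), as did the GAPDH covariate (0.0819).

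All chemokine genes on the array were also counted, in a list made after the values had been seen. Of 29 measured, 6 rose and none fell, with 24 positive differences and a median of 0.22. Over all genes, 0.513% were called higher and 52.2% had a positive difference. Leaving out an array in turn gave 3 to 7 chemokine genes that rose. Beside Ccl2, Ccl7 and Cxcl10 these were Xcl1, Ccl4 and Cxcl2, which were chosen after their values were seen. Xcl1, the lymphotactin of activated lymphocytes, read 6.08 to 6.67 in control and 7.06, 7.29 and 7.49 at the dose, and rose by 1.01 ± 0.16 (limma, adjusted p = 0.00471). Ccl4, or MIP-1 beta, read 6.30 to 6.41 in control and 6.73, 7.08 and 7.79 at the dose, and rose by 0.86 ± 0.18 (adjusted p = 0.0257). Cxcl2, a neutrophil attractant, rose by 0.46 ± 0.09 (adjusted p = 0.0244). The calls of Ccl4 and Cxcl2 ended with the GAPDH covariate (adjusted p = 0.0644 and 0.0631) and on leaving out any of 6 and of 3 arrays (up to 0.118 and 0.128). Cxcl1, a close relative of Cxcl2, read 10.78 to 12.53 in control and 9.31, 10.68 and 10.38 at the dose, a difference of -1.44 ± 0.86 that was not called. The cytokine genes Il1b and Tnf differed by 0.44 ± 0.18 and -0.09 ± 0.11 and were not called. Of other genes that NF-kB is known to act through or on, Bcl2a1 was called higher, by 0.74 to 1.22 with an array left out. Leaving out any of 6 arrays ended its call (limma, adjusted p up to 0.186). Nfkbia differed by 0.39 ± 0.27, Nfkb2 by 0.50 ± 0.13 and Icam1 by 0.68 ± 0.22, and none of these was called. With the GAPDH covariate Nfkb2 was called (adjusted p = 0.0353).

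**Figure D4:**
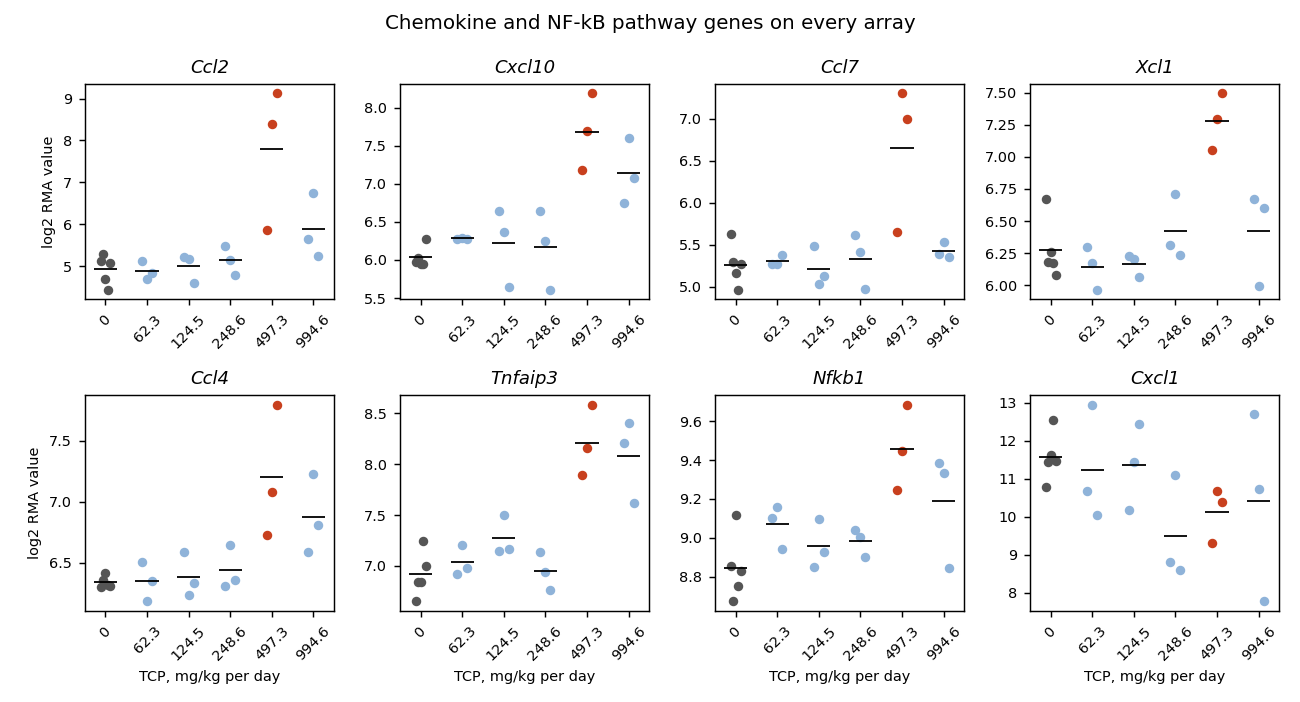
Each panel shows the log2 RMA value of 1 chemokine or NF-kB pathway gene on all 20 arrays by daily dose of TCP, with grey points for control, red for 497.3 mg/kg, blue for other doses and lines for group means; the vertical scale differs between panels. For Ccl2 and Ccl7 the red points split into 1 array near control and 2 far above it, and Cxcl1 shows no such rise.

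Markers of the cells that could carry these genes were read beside them. None of 11 Kupffer cell and macrophage markers was called (median 0.15), none of 8 neutrophil markers (median 0.04) and none of 17 T, NK and B cell markers (median 0.09). Unadjusted limma p-values were under 0.05 for 1, 1 and 2 of them. The log2 of the summed macrophage marker signal was 13.43 to 13.95 in control and 13.96 to 14.07 at the dose, which narrowly did not overlap. The mean of the macrophage markers' log2 values was 9.58 to 10.08 in control and 9.90 to 10.16 at the dose, which overlapped. For neutrophil markers the log2 summed signal was 8.96 to 9.58 and 9.18 to 9.40, and for T, NK and B cell markers 10.22 to 10.47 and 10.40 to 10.56, which overlapped. Lyz2, the lysozyme of macrophages, had the largest difference among the macrophage markers. It read 10.71 to 11.13 in control and 11.33, 11.48 and 12.33 at the dose, 0.72 ± 0.21 apart (adjusted p = 0.123). Clec4f, a marker of rat Kupffer cells, differed by 0.03 ± 0.15, Cd68 by 0.23 ± 0.16 and the leukocyte gene Ptprc by 0.45 ± 0.22. Mmp9, a secreted protease, had the largest difference of the neutrophil markers, 0.31 ± 0.12. The part of macrophage RNA in the chemokine values was not tested.

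Epcam and Krt18 rose as well. Of 12 bile duct cell markers measured, 2 rose and none fell, with a median of 0.14. Over all genes, 0.513% were called higher. Epcam, an adhesion molecule of bile duct and progenitor cells, read 8.997 to 9.35 in control and 9.82, 10.17 and 10.14 at the dose, and rose by 0.86 ± 0.14 (limma, adjusted p = 0.00475). Krt18, a keratin that hepatocytes also make, read 11.80 to 11.90 in control and 12.44, 12.39 and 12.80 at the dose, and rose by 0.70 ± 0.10 (adjusted p = 0.00325). Neither call ended on leaving out an array. Krt19, a keratin of bile duct cells, read 6.12 to 6.83 in control and 6.67, 8.68 and 7.98 at the dose, a difference of 1.32 ± 0.33 (adjusted p = 0.0806). Krt7, another, differed by 0.03 ± 0.16. The log2 summed signal of the list was 13.03 to 13.21 in control and 13.55 to 13.91 at the dose. Genes of high signal, Krt18 among them, weigh most in that sum. The mean of the list's log2 values was 7.59 to 7.67 in control and 7.74 to 8.17 at the dose. The list's signal did not overlap between the groups, while for Krt19 replicate 1 of the dose lay within the control range.

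No call was made among 14 hepatocyte markers (median -0.03), 15 stellate cell and fibroblast markers (median -0.04) or 12 endothelial markers (median -0.08). Unadjusted limma p-values were under 0.05 for 1, 4 and 0 of them. Rgs5, a pericyte gene, had the largest difference of the stellate list, 0.61 ± 0.18, and Vwf, the von Willebrand factor, that of the endothelial list, -0.19 ± 0.14. Albumin read 15.34 to 15.35 on all 8 arrays, near the top of the scale of these arrays. Of 8 red blood cell markers, 7 had a negative difference and none was called by limma, with a median of -0.35. An unadjusted limma p under 0.05 was found for 5 of the 8, and for 1729 of all 14217 genes. On all dose arrays 5 of the 8 lay below control, against 4.29% of all genes. The hemoglobin gene Hbb read 13.18 to 13.37 in control and 12.59, 12.49 and 12.86 at the dose, a difference of -0.63 ± 0.25 (adjusted p = 0.286). Alas2, the heme synthesis enzyme of red cell precursors, read 7.997 to 8.46 and then 7.46, 7.32 and 7.56, a difference of -0.73 ± 0.23 (adjusted p = 0.169). Neither gene overlapped control. Hba-a3, an alpha globin, had the largest difference of the list, -0.76 ± 0.24. In a fit to the compared groups alone Hbb and Alas2 were called (adjusted p = 0.00964 and 0.00992), as was Hba-a3.

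Among the decreases outside lipid metabolism were feedback inhibitors and transcription factors. Errfi1, Dusp6, Klf9, Bhlhe40, Klf10 and Ier2 fell. Of 27 immediate early genes, 3 fell and 1 rose, with a median of 0.00.

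Errfi1 binds and inhibits the EGF receptor. It read 12.94, 13.04, 13.12, 13.18 and 12.86 in control and 11.66, 12.03 and 11.81 at the dose. All dose arrays were clearly below control. Errfi1 fell by 1.20 ± 0.19 (limma, adjusted p = 0.00441), and the call remained whichever array was left out. The other doses differed from control by 0.02, -0.18 and -0.52, and by -0.29 at 994.6 mg/kg, so the group mean was lowest at 497.3 mg/kg.

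Dusp6, a phosphatase that switches off ERK, read 10.45, 10.75, 11.11, 10.82 and 10.92 in control and 9.84, 9.56 and 9.20 at the dose. It fell by 1.28 ± 0.22 (limma, adjusted p = 0.00827), and the call ended without replicate 3 of the dose (0.0599). Klf9, a transcription factor induced by glucocorticoids, read 11.23 to 12.31 in control and 10.67, 10.73 and 10.21 at the dose. It fell by 1.30 ± 0.24 (adjusted p = 0.0132), and its call ended without replicate 3 (0.0870). Averaged over its 3 probe sets, Klf9 differed by -0.61 and was not called (0.107). It was the 1 call among 20 glucocorticoid targets and metallothioneins (median -0.06). Both genes lay below control on every dose array.

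Bhlhe40, a repressor that feeds back on the circadian clock, read 8.01 to 9.07 in control and 7.24, 7.14 and 6.52 at the dose. It fell by 1.47 ± 0.28 (limma, adjusted p = 0.0162). At 994.6 mg/kg it differed from control by 0.28, and at the lower doses by -0.36, -0.85 and -0.86. It was the 1 call among 22 clock genes, whose median was -0.09, with 13 negative and 9 positive differences. Of the 22, 10 had an unadjusted limma p under 0.05. On all dose arrays 7 lay below control and 2 above, against 4.29% and 5.71% of all genes. Usp2, Nfil3 and Hlf differed by -1.16, -0.71 and -0.68 and were not called. Bmal1, Per2 and Cry1, core clock genes, differed by -0.01 ± 0.16, -0.11 ± 0.11 and 0.05 ± 0.19, and the last turned negative under some settings, to -0.10 with replicate numbers as a block. Nr1d1, a clock repressor, differed by 1.04 ± 0.35 (adjusted p = 0.202) and Dbp by 0.23 ± 0.25. The labels give no hour of killing, so its part in these values was not tested.

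Klf10 fell by 1.23 ± 0.26 (limma, adjusted p = 0.0347) and Ier2 by 0.86 ± 0.17 (0.0244), while Egr2 rose by 0.77 ± 0.17 (0.043). All are early transcriptional regulators. Jun, a subunit of AP-1, read 8.55 to 9.08 in control and 8.54, 8.63 and 8.69 at the dose, a difference of -0.24 ± 0.23. With the GAPDH covariate the calls of Bhlhe40, Klf10, Ier2 and Egr2 ended (adjusted p = 0.0535, 0.0644, 0.0753 and 0.0879). Leaving out an array ended the call of Bhlhe40 for 2 arrays, Ier2 for 4 and Klf10 and Egr2 for 7 each, with adjusted p up to 0.0937, 0.124, 0.126 and 0.182. With the mean of its probe sets Egr2 differed by 0.26 and was not called (0.281).

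Other large decreases were less stable. Fer1l5, a ferlin, fell by 1.16 ± 0.23 (limma, adjusted p = 0.0247), and Ccar1, a transcriptional coactivator, by 1.16 ± 0.25 (0.0382). Their calls ended with the GAPDH covariate (adjusted p = 0.0703 and 0.102) and on leaving out any of 5 and of 7 arrays, with adjusted p up to 0.140 and 0.147. With the mean of its probe sets Ccar1 differed by -0.42 and was not called (0.0885).

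Lists of damage and protein stress held single calls. Fas, a death receptor and p53 target, rose by 0.71 ± 0.14 (limma, adjusted p = 0.0233), the 1 call among 15 p53 targets (median 0.12). Its call ended on leaving out any of 5 arrays (up to 0.123). Cdkn1a, the p53 target p21, read 10.16 to 11.49 in control and 9.76, 10.11 and 9.93 at the dose, -1.04 ± 0.43 apart and not called (adjusted p = 0.321). Manf, a secreted protein of endoplasmic reticulum stress, rose by 0.46 ± 0.10 (adjusted p = 0.045), the 1 call of 33 measured in the list of unfolded protein and related stress responses (median 0.13). Its call ended with the GAPDH covariate (0.112) and on leaving out any of 6 arrays (up to 0.213).

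None of 19 heat shock proteins (median 0.05), 32 proteasome subunits (median 0.13) or 36 cell cycle genes (median 0.20) was called by limma, with 5, 10 and 10 at an unadjusted p under 0.05. Of the proteasome subunits 28 had a positive difference, and 11 of the 32 lay above control on all dose arrays. Of the cell cycle genes 30 had a positive difference, and 4 of the 36 lay above control. Over all genes, 52.2% had a positive difference and 5.71% lay above control on all dose arrays. Psmb7, a proteasome subunit, had the largest difference of its list, 0.55 ± 0.15 (adjusted p = 0.111). Hspa1a, an inducible HSP70, read 6.49 to 7.38 in control and 6.56, 7.66 and 9.28 at the dose, 1.03 ± 0.40 apart with overlap. Ccnb1, the mitotic cyclin, differed by 0.61 ± 0.25 (adjusted p = 0.324).

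**Figure D5:**
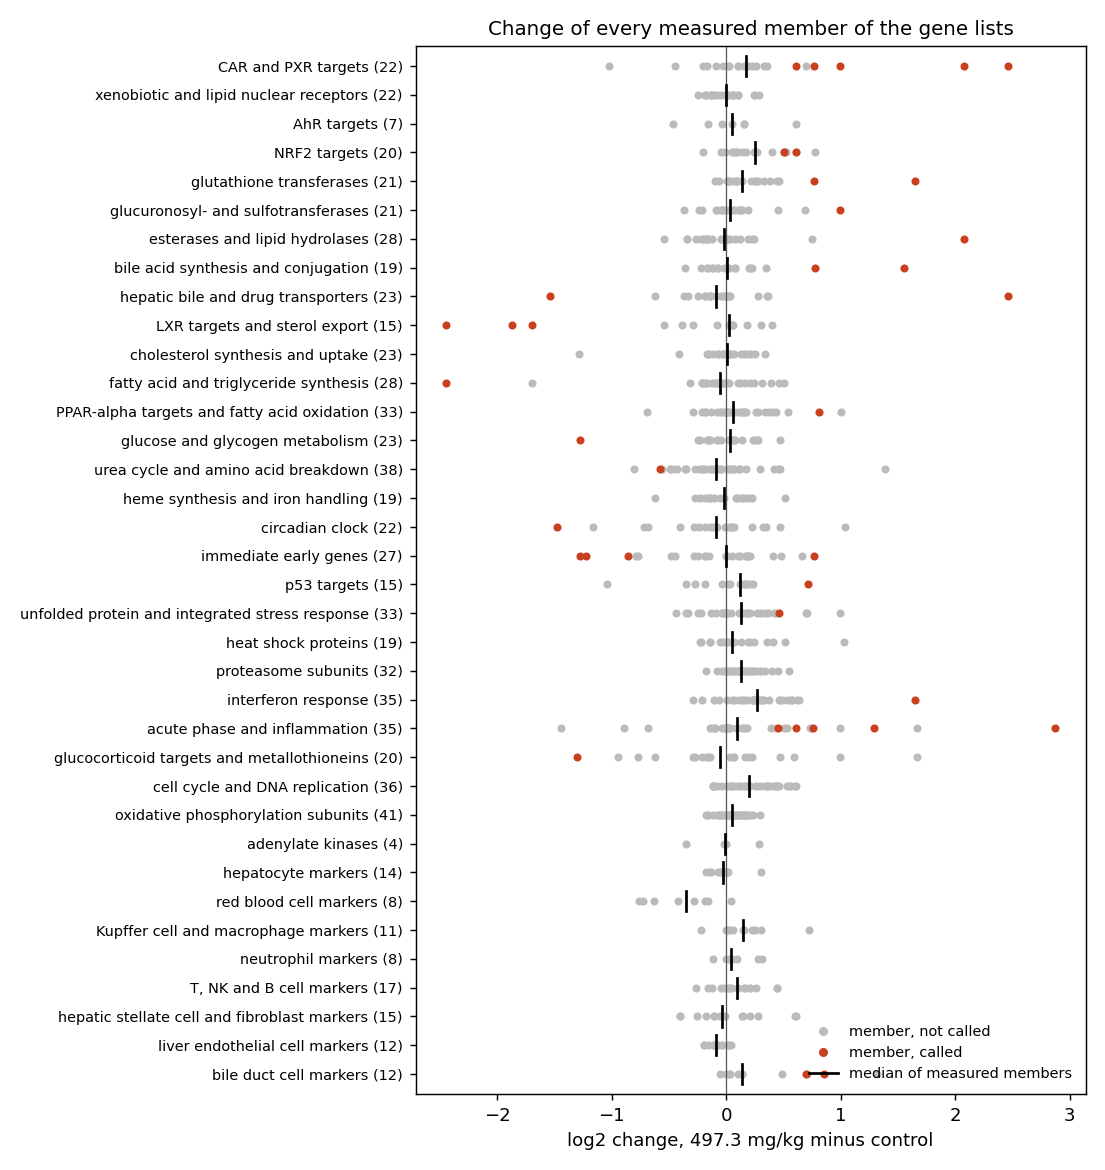
Each point is the log2 change of 1 measured gene at 497.3 mg/kg against control, placed in the row of its list, with the number measured in brackets; red points were called, grey points were not, and black lines are list medians. The CAR and PXR list holds 5 red points, all positive, the LXR list 3, all negative, and the 8 cell type marker lists at the bottom hold 2, both among bile duct markers.

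The dose was also compared with treated rats only, so that no control array entered the difference. Against the mean of the 62.3, 124.5 and 248.6 mg/kg groups, 13 genes were called (0.0914%), 11 higher and 2 lower. This comparison shares the 3 dose arrays with that against control. Ccl2 was 2.79 higher, Cxcl10 1.46, Ccl7 1.37, Abcc3 1.22, Tnfaip3 1.13, Ces2c 0.99 and Egr2 0.85 higher on the log2 scale. Errfi1 was 0.97 and Slc6a6 0.89 lower. The other 4, which were outside the rule for naming genes, were Xcl1, Sgpl1, Eno2 and Rdh5, at 1.04, 0.59, 0.44 and 0.42 higher. Sgpl1 encodes the lyase that ends sphingosine phosphate signalling, Eno2 an enolase and Rdh5 a retinol dehydrogenase. The count was 24 without replicate 1 of the dose, 1 without replicate 2 and 2 without replicate 3. It was 8 without replicate 1 of 62.3 mg/kg and 8 without replicate 1 of 124.5 mg/kg.

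Against 248.6 mg/kg alone, a single gene was called (0.00703%), and 638 had an unadjusted p under 0.05. Tnfaip3 was 1.26 higher at 497.3 mg/kg. It was called neither without replicate 2 or 3 of the dose nor without any array of 248.6 mg/kg, each of which left a count of 0, and 12 genes were called without replicate 1 of the dose. Abcc3, by contrast, differed from 248.6 mg/kg by 0.44 ± 0.27 and Ccl2 by 2.66 ± 0.54, and neither was called.

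Between 994.6 and 497.3 mg/kg, 3 genes were called (0.0211%). Jun was 2.13 and Nr1d2, a clock repressor, 1.05 higher at 994.6 mg/kg, and Ak4, a mitochondrial adenylate kinase, was 0.83 lower. Ccl2 was 1.92 ± 0.54 lower at 994.6 than at 497.3 mg/kg on the log2 scale (limma, adjusted p = 0.348), a difference that was not called. Of the 104 genes called at 497.3 mg/kg, 38 lay further from control at 994.6 mg/kg by group mean and 66 nearer to it, a tally that shares the arrays on which they were called. The count of genes called between the 2 doses was 8, 6 and 1 without replicates 1, 2 and 3 of 497.3 mg/kg. It was 4, 15 and 1 without replicates 1, 2 and 3 of 994.6 mg/kg. Of the 3 genes called in the full fit, 1 remained called without replicate 1 of 994.6 mg/kg. Likewise 1 remained without replicate 3 of 994.6 mg/kg and 1 without replicate 3 of 497.3 mg/kg, and 2 without replicate 1 of 497.3 mg/kg.

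Probe sets were also tested singly. Of 31042, 97 were called against control (0.312%), of which 17 carry no single gene symbol.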

How the data were processed

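The 20 arrays, 1 per rat, are 1-colour Affymetrix expression arrays of liver RNA. The deposited values are log2 expression made by the authors with RMA, per the submitters' processing notes; the RMA version, and which arrays were normalized together, are not given in the sources used here. Depth has no counterpart on arrays, and their number limits the precision.

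The table holds 31099 probe sets. The 57 controls were left out. Of the other 31042, 20826 carry 1 gene symbol in the platform annotation, 436 several and 9780 are unnamed here. Symbols were updated by gene identifier (20758), by accession (2) or kept (66). Each of the 14217 genes took its probe set of highest mean. Among the genes named by the rule, 6 have another probe set of opposite sign, none of them called.

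Differences came from limma 3.58.1 in R 4.3.3, with a mean for each dose group over all 20 arrays (lmFit, contrasts.fit, eBayes; 14 residual degrees of freedom). The pipeline was tested on simulated data. RNA ends were compared by an exact permutation test.

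Members and lists were chosen with earlier results of these data known. Of 902 list members, 778 were measured. The text names up to 12 called genes per direction without overlap between groups, up to 4 called members per list or else the member with the largest difference, up to 5 per direction from the other comparisons, and a fixed set of which Cyp2b1 and Cyp2b2 were not analysed here. Genes outside this rule appear where a list, cell type or comparison turned on them and were chosen after their values were seen. A called gene is not reported here. Replicate numbers come from the titles and were not treated as pairing the samples in the fit reported.

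Promoter windows are from RefSeq (GRCr8) and motifs were searched on both strands. Alternatives covered scaling, the filter, the probe set summary, the variance model, weights, the arrays in the fit, the GAPDH covariate, a replicate block and each array left out.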

Additional observations from a re-analysis of the deposited data

Results flagged for a closer look

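In 4 of the 75 genes named by the rule, 1 control array stood apart from the other 4 by Dixon's criterion, and chance alone marks about 1 group in 20. Cxcl10 read 6.27 in control replicate 5 and 5.94 to 6.03 in the others, all below the lowest array at 497.3 mg/kg. Ak4 read 11.19 in control replicate 4 and 11.57 to 11.63 in the others. Asgr2, a hepatocyte receptor, read 11.04 in control replicate 2 and 11.41 to 11.54 in the others. Gadd45a read 8.81 in control replicate 5 and 9.40 to 9.61 in the others.

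Probe sets without a single gene symbol, which no gene comparison used, also held calls. Of 10216, 17 were called at 497.3 mg/kg against control, 7 higher and 10 lower, and the largest of each direction follow. Probe set 1371076_at was higher by 2.24 ± 0.28 (limma, adjusted p = 0.000693), with 10.59 to 12.41 in control and 13.80 to 14.12 at the dose. Probe set 1377885_at was higher by 1.51 ± 0.31 (adjusted p = 0.036), with 6.61 to 7.26 and 8.20 to 8.62. Probe set 1392587_at differed by -1.44 ± 0.20 (adjusted p = 0.00225), with 10.41 to 11.08 and 9.31 to 9.33. Probe set 1395845_at differed by -1.14 ± 0.18 (adjusted p = 0.00701), with 6.32 to 7.16 and 5.18 to 5.77. They are unnamed here.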

How the results depend on the processing

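Against control, 104 genes were called. Array weights gave 281, a fit to the compared groups alone 235, and the replicate block 38 (18 higher, 20 lower, 33 of them among the 104). That block pairs arrays by number and leaves out control replicates 4 and 5. Same-numbered arrays of this dose and control deviated with correlations of 0.003, -0.053 and -0.382, and arrays of different number with -0.142 to 0.331. The other doses were not compared in this way, so whether arrays of a number share a batch was not tested. Leaving out an array gave 38 to 73. Median centring gave 108, quantile normalization 142, dropping the lowest 50% of genes 83, the mean of probe sets 92, trend and robust eBayes 96 and the fit without array 1 of 994.6 mg/kg 156. No scaling moved the median of all genes by over 0.1. Of the 40 called genes named by the rule, 13 remained called under all settings run, 14 whichever of the 8 arrays was left out, and none changed sign. The replicate block ended 19 of these calls, the GAPDH covariate 11, the mean of probe sets 6 (among them Gstt3, Egr2, Srxn1, Ccar1 and Klf9), trend and robust eBayes 6 (among them Cyp7a1, Gstt3, Ccar1, Klf10 and Scd), median centring 2 (Egr2 and Manf) and the compared groups alone 1.

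Between 994.6 and 497.3 mg/kg (3 genes), median centring gave 6, quantile normalization 5, the filter on low genes 6, the mean of probe sets 1, trend and robust eBayes 5, array weights 122 and leaving out an array 1 to 15. Against 248.6 mg/kg (1 gene), quantile normalization, the filter, the mean of probe sets, array weights, the compared groups alone, the fit without array 1 of 994.6 mg/kg and the replicate block each gave 0 in limma, and leaving out an array 0 to 12; 638 genes had an unadjusted p under 0.05 in the fit reported. Against the 3 lower doses (13 genes), the filter gave 5, trend and robust eBayes 8, the compared groups alone 4, the replicate block 7 and leaving out an array 1 to 24. For probe sets without a single symbol (17), quantile normalization gave 28, array weights 69, the compared groups alone 53, the fit without array 1 of 994.6 mg/kg 38, the replicate block 5 and leaving out an array 9 to 13.

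Cyp1a1 turned to -0.046 with the GAPDH covariate. Cry1 turned to -0.036 with array weights and -0.10 with the replicate block, and ranged from -0.12 to 0.20 with an array left out, as Gadd45a did from -0.10 to 0.32. The GAPDH end difference ranged from -0.62 to -0.51 and that of beta-actin from -0.68 to -0.40 with an array left out. The causes were not tested. Genes near background, and those with a wide control spread such as Scd, limit what 3 arrays can show. Ccl2, Ccl7, Cxcl10, Cxcl2, Egr2, Rbp2 and Eno2 read below the array medians of 6.31 to 6.41 on all control arrays.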
